A study of Homo sapiens with 6 samples.

Results

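The comparison described here is the change from 6 h to 24 h of culture with interleukin-6 (IL-6). It was taken from 2 of the 6 RNA-seq libraries of the series, and 13028 of the 19978 protein-coding genes listed had a value in all 6 libraries. All libraries came from THP-1 cells, a line derived from a human monocytic leukaemia that grows in suspension and stands in for monocytes in culture work. RNA was taken at 6, 24 and 48 h from cells given recombinant human IL-6 and from control cells, labelled ctrl. The libraries of each agent are called the IL-6 culture and the control culture below. The labels do not say whether they are separate cultures. The series design gives the aim as finding how IL-6 changes gene expression in these cells, in a study of IL-6 receptor-bearing monocytes in the lung in chronic obstructive pulmonary disease. The labels give no dose of IL-6, no cell density and no medium change, and do not say what the control culture received. Each combination of agent and time had 1 library, so the IL-6 interval has no replicate check and no test of its own. The cells being a single leukaemia line, all 6 libraries share its genotype.

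IL-6 binds its receptor and the shared signalling chain gp130, which activates JAK kinases and the transcription factor STAT3. The response is known to start within minutes and to be held back by induced inhibitors such as SOCS3, so genes that are direct targets can be high at an early time and change little afterwards. A culture left for a day also uses up nutrients, gains cell density and moves through the cell cycle, which happens with or without the cytokine. The control culture over the same hours therefore stands beside most values below.

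Values are the authors' log2 values, centred on each gene's mean over the libraries, so a gap of 1 between libraries means a 2-fold change. Levels in an arbitrary unit could be recovered from them for 87.6% of the genes with 6 values, as set out with the processing, and are comparable between libraries for a given gene but are not read counts. Sequencing depth is unknown. A value was listed for 22333 gene rows in the IL-6 library of 6 h and for 22733 in that of 24 h, and for 22000 and 23108 in the matching control libraries. Counts below are over 8669 genes whose mean level in the 4 libraries of 6 h and 24 h reached 5, or whose level was too high to recover. Of the 10 monocytic markers checked (LYZ, CD33, SPI1, ITGAM, CSF1R, CD68, FCGR1A, CST3, LYN and CYBB), all had values in the 6 libraries, and only ITGAM, at a mean level of 4.94, fell short of that filter. In bulk RNA, a change in the number of cells of a type and a change in RNA per cell cannot be told apart.

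Past 2-fold, many more genes went up than down over the IL-6 interval, while 52.6% of all genes were above their 6 h value. At 24 h, 243 of 8669 genes (2.80%) were at least 2-fold above their 6 h value and 47 (0.542%) at least 2-fold below it. The control culture gave 196 higher (2.26%) and 26 lower (0.300%). In the control interval the median gene was higher by 0.11 (log2), against 0.02 in the IL-6 interval. With the medians of both intervals set to 0, the control split became 140 higher and 49 lower, and the IL-6 split 227 and 54. The threshold was passed most often by genes of low level: 8.11% of the 1615 genes at a level of 5 to 10 passed it in the IL-6 culture, against 1.62% of the 2844 genes at 50 or above or with no recovered level.

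The 2 cultures moved alike in most of what was higher at 24 h. Of the 243 genes at least 2-fold higher with IL-6, 220 were also above their 6 h value in the control culture, as were 62.6% of all genes, with a median control difference of 0.87 beside 0.11 over all genes. There, 99 of them passed 2-fold too, which is 40.7% of the IL-6 set and 50.5% of the control set. Of the 47 lower genes, 31 were lower in the control, as were 37.4% of all genes, and 5 by at least 2-fold (10.6% and 19.2% of the sets), with a median control difference of -0.32. The change common to the 2 cultures could be tested with limma over the 6 libraries, with 389 genes higher (4.49%) and 118 lower (1.36%) at an adjusted p under 0.05. Of the 99 and 5 genes past 2-fold in both cultures, 94 and 5 were among them, an overlap that the choice of those genes largely fixes. That test rests on 2 residual degrees of freedom, and with equal library medians it called 264 higher and 168 lower. The error of that test is what time and agent leave over, so it includes any change of the IL-6 effect with time. The labels do not say whether the libraries are separate cultures, so these p-values speak for the 6 libraries alone. The rest of that error may be technical.

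Far fewer genes changed with IL-6 beyond the control. A gene was counted as exceeding the control when the IL-6 difference was at least 2-fold and at least 2-fold beyond the control difference in the same direction. This held for 48 higher genes (0.554%) and 18 lower genes (0.208%), of which 38 and 14 had a control difference under 0.5 (log2) in size. By level, 2.60% of genes at 5 to 10 were in this class, 0.523% of those at 10 to 50 and 0.0703% of those above. Without replicates, how much of it is library noise was not tested. Across the 8669 genes the 2 intervals, which share no library, correlated with a Pearson r of 0.55 and a Spearman rho of 0.48, as a description over genes, which are not independent replicates.

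**Figure D1:**
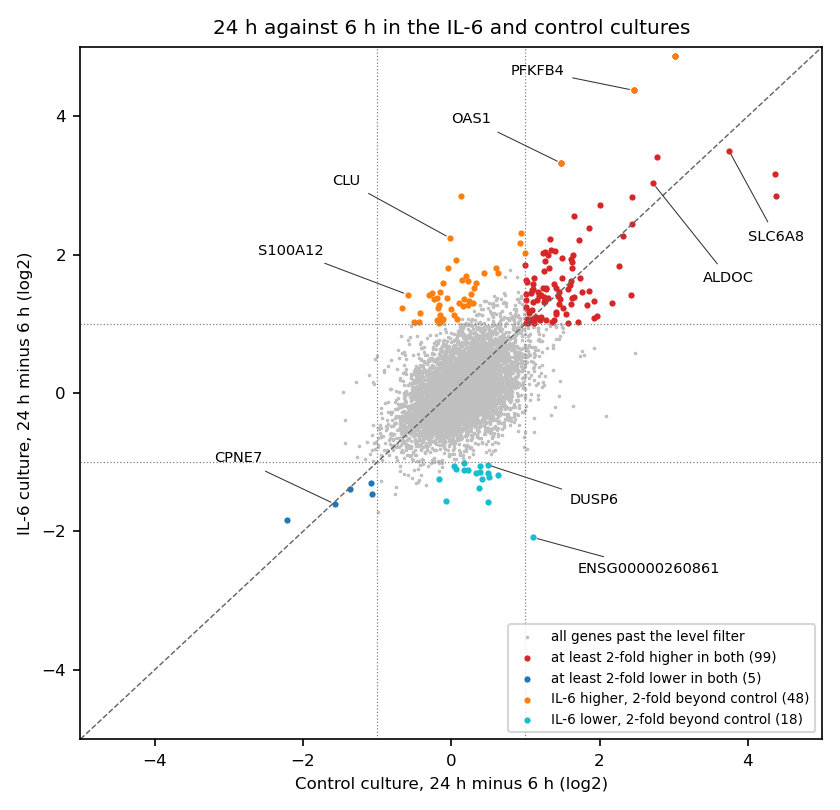
Difference between 24 h and 6 h (log2) in the control culture (horizontal axis) and in the IL-6 culture (vertical axis), 1 point per gene for 8669 genes, with dotted lines at 2-fold and a dashed line of equality. The 99 genes past 2-fold upward in both lie along the line, SLC6A8 and ALDOC among them, while CLU and S100A12 stand above the cloud at control differences of -0.02 and -0.59.

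Of the 10 largest upward IL-6 differences at a mean level of at least 10, 7 were shared with the control at 2-fold. The others, ENSG00000144785 (2.84 against 0.13), CD9 and CLU, are described further on. SLC6A8, the creatine transporter gene at chrX:153687926-153696588, had IL-6 levels of 3.54, 40.1 and 14 at 6, 24 and 48 h, and control levels of 3.28, 43.9 and 3.71. The gene thus stood high at 24 h in both cultures, and at 48 h it had come down in both, less far with IL-6. Its 24 h minus 6 h differences were 3.50 with IL-6 and 3.74 without, and the common rise was 3.62 ± 0.561 (limma SE, adjusted p = 0.0451). ALDOC, a glycolytic aldolase, went from 12.3 to 100 with IL-6 and from 15.6 to 103 without, and stood at 53.6 and 24.5 at 48 h. TMEM45A, which encodes a transmembrane protein, went from 6.84 to 48.5 and from 7.53 to 41. The pattern of a peak at 24 h was the same in all 3 genes. CD300A, an inhibitory receptor of myeloid cells, differed by 2.45 with IL-6 and 2.43 without, and TUBA1A, an alpha-tubulin, by 2.39 and 1.86. TSC22D3, which encodes the glucocorticoid-induced leucine zipper, differed by 2.56 and 1.65. For DDIT4, a stress-induced inhibitor of mTORC1 with no recovered level, the centred log2 values were -1.70 at 6 h and 1.01 at 24 h with IL-6 and -1.35 and 0.65 without, a difference of 2.71 against 2.0. For these 6 genes after SLC6A8, limma adjusted p-values of the common rise ran from 1.47e-05 for TMEM45A to 0.00964 for DDIT4.

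Downward, the shared genes were few. CPNE7, a calcium-dependent copine, fell from 17.6 to 5.79 with IL-6 and from 17.1 to 5.76 without (differences of -1.6 and -1.57, limma adjusted p = 0.000467), and stood at 10.3 and 9.98 at 48 h. The levels of the 2 cultures all but coincided at each time. CD52, a small surface glycoprotein of leukocytes, fell by 1.45 with IL-6 and by 1.07 without (limma adjusted p = 8.49e-05). FCER2, the low-affinity IgE receptor CD23, had differences of -1.27 and -0.94, the second just short of 2-fold. The other genes lower in both by 2-fold were TCN1, which encodes a vitamin B12-binding protein, SERF1B, which has a near-identical copy, and the readthrough gene CENPS-CORT, and reads of the last pair cannot be assigned with certainty. These 3 were named after their values were seen.

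**Figure D2:**
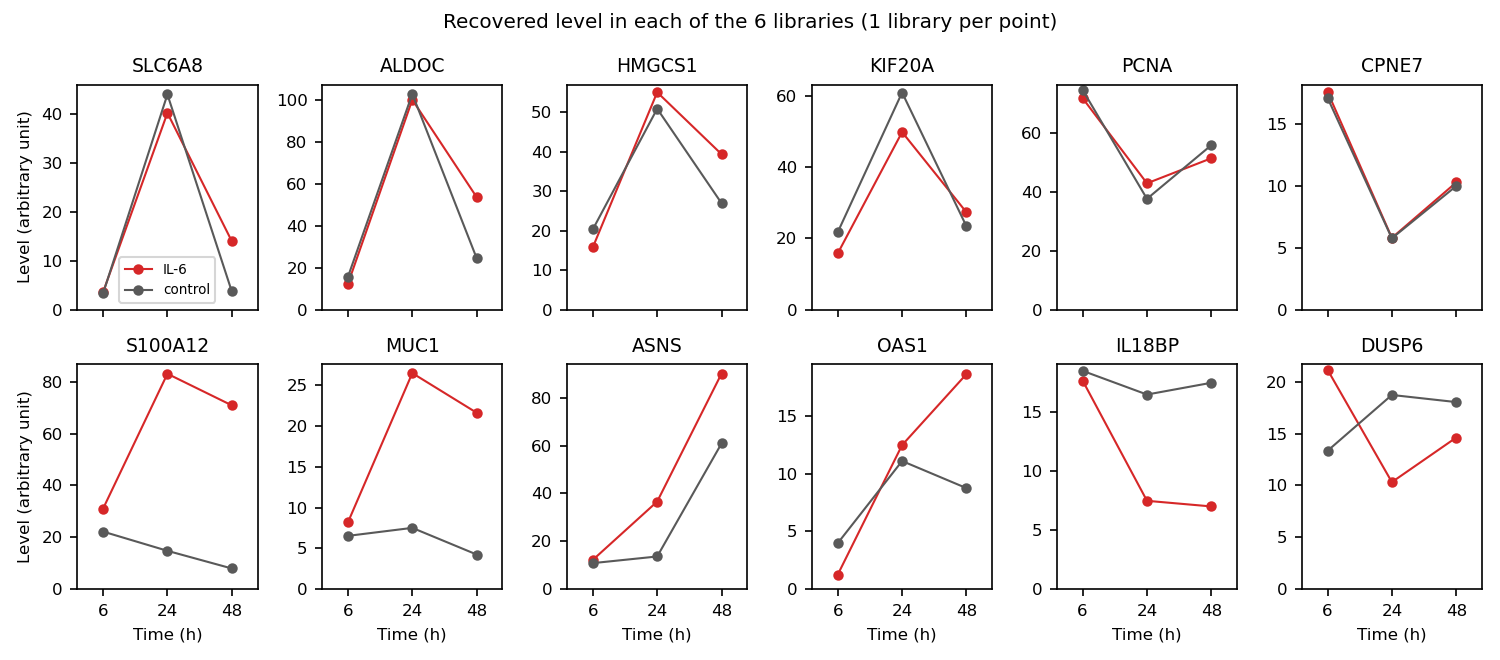
Recovered level (arbitrary unit, axis from 0, different for each gene) at 6, 24 and 48 h in the IL-6 culture and in the control culture, 1 library per point and no replicates. In the upper row the lines of the 2 cultures run together from 6 h to 24 h. In the lower row the lines separate for S100A12 (83.1 with IL-6 against 14.8 at 24 h), MUC1, ASNS and IL18BP. For OAS1 (1.25 with IL-6 against 3.98 at 6 h, 12.5 against 11.1 at 24 h) and DUSP6 the lines cross.

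Genes of cholesterol synthesis and uptake were higher at 24 h almost throughout. These genes are known to be switched on by the SREBP transcription factors when sterols in the cell run low. Of the 24 measured members, 15 passed 2-fold upward with IL-6, 13 did in the control and 12 did in both, and none was lower by 2-fold. The median difference was 1.30 with IL-6 and 1.05 without, beside 0.02 and 0.11 over all genes, and 23 of 24 members rose over both cultures by limma. HMGCS1, a synthase early in the pathway, had levels of 15.8, 55.1 and 39.4 at 6, 24 and 48 h with IL-6 and of 20.3, 50.9 and 26.9 without. LSS, lanosterol synthase, went from 26.6 to 75.4 and from 27.5 to 82.2. No member exceeded the control by 2-fold, and the differences of the intervals ran from -0.54 to 0.48. The sterol regulatory element core TCACNCCAC, on both strands, stood in 1 of 18 matched promoters of the list (250 bases before to 50 after the start, RefSeq GRCh38.p14) and in 1.06% of those of the genes counted here. Fatty acid synthesis genes gave the same picture, with 5 of 11 past 2-fold with IL-6, 4 of 11 in the control and medians of 0.78 and 0.79. SCD, the stearoyl-CoA desaturase, differed by 1.46 in each culture, while ACSS2, which makes acetyl-CoA from acetate, went from 16.2 to 66.5 with IL-6 and from 22.4 to 53.6 without.

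Mitotic genes were higher and replication genes lower at 24 h, in both cultures and by like amounts. Of 40 mitotic genes, 16 passed 2-fold upward with IL-6, 15 in the control and 10 in both, with medians of 0.85 and 0.79, and 33 rose by limma over both cultures. KIF20A, a kinesin of cytokinesis, had levels of 15.8, 49.9 and 27.3 with IL-6 and 21.7, 61.0 and 23.4 without at 6, 24 and 48 h. CCNB1, mitotic cyclin B1, differed by 1.39 and 1.65, and its partner kinase CDK1 by 0.57 and 0.39. MKI67, the proliferation marker Ki-67, differed by 0.68 in each. Of 46 replication and S-phase genes, 43 were below their 6 h value with IL-6 and 46 in the control, beside 47.4% and 37.4% of all genes, with medians of -0.50 and -0.49, and 18 fell by limma. Only MCM10, a replication initiation factor, passed 2-fold with IL-6 (-1.05, against -0.69 in the control). PCNA, the sliding clamp of DNA polymerase, went from 71.9 to 42.9 with IL-6 and from 74.6 to 37.6 without, and CDC6, which loads the MCM helicase, from 73.5 to 43.0 and from 70.9 to 43.4. By 48 h the IL-6 medians against 6 h were 0.24 for the mitotic genes and -0.34 for the S-phase genes. No member of either list exceeded the control by 2-fold in either direction.

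Mitotic promoters are known for a short element called the cell cycle genes homology region, read by the DREAM and MuvB complexes, and the promoters of 2 members are shown for it. Promoter windows of 250 bases before to 50 after the start were taken from RefSeq (GRCh38.p14) and matched 7151 of the 8669 genes by symbol. The core TTTGAA, searched on both strands, stood in 24 of the 33 mitotic promoters matched and in 9.50% of the 7151. CCNB2, cyclin B2, lies at chr15:59104896-59105195, plus strand, and DLGAP5, a spindle protein, at chr14:55191536-55191835, minus strand. Capitals mark each match of the core on either strand, printed 5′ to 3′ in the direction of the gene.
CCNB2: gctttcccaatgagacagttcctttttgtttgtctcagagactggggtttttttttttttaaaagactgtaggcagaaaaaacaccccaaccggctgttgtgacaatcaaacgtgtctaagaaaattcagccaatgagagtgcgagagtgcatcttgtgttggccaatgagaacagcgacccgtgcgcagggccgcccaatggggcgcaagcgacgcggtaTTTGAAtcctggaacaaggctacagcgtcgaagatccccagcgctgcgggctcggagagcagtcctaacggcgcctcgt
DLGAP5: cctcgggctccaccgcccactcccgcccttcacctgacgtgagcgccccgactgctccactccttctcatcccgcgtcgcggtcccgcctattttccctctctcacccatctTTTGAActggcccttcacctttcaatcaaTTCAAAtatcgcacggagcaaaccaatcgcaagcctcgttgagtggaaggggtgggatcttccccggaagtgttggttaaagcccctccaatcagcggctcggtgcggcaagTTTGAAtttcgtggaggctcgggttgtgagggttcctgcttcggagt
CCNB2 holds 1 match and DLGAP5 holds 3. CCNB2 differed by 1.46 with IL-6 and by 1.17 without. This search, like those for the sterol, hypoxia, C/EBP-ATF and interferon elements, was chosen after the values were seen, and a match is a description and not a binding site.

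Glycolysis and hypoxia-response genes were split within the list, but their medians were alike between cultures. Of 29 members, 9 passed 2-fold upward with IL-6, 10 in the control and 8 in both, with medians of 0.52 and 0.53. The larger difference was with IL-6 in 20 of 29, as in 41.4% of all genes. The median gap was 0.14, beside -0.07 over all genes. VEGFA, the angiogenic growth factor, went from 11.5 to 45.9 with IL-6 and from 13.9 to 34.2 without. NDRG1, a gene known to be induced by low oxygen, went from 4.98 to 19.9 and from 7.82 to 24.4. PFKFB4, which makes the glycolytic activator fructose 2,6-bisphosphate, was the 1 member past the control by 2-fold: it went from 0.804 to 16.7 with IL-6 and from 2.84 to 15.6 without, so the cultures differed at 6 h and met at 24 h. At 48 h it was at 12.6 and 2.4. SLC2A1, the glucose transporter GLUT1, differed by 0.77 and 0.63. The hypoxia element core ACGTG, on both strands, stood in 11 of 26 matched promoters of the list, against 28.1% of all 7151. Of the 29 members, 28 were above the control at 48 h, against 44.0% of all genes, with a median ratio of 0.37.

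Gene groups are shown side by side in the plot of lists.

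**Figure D3:**
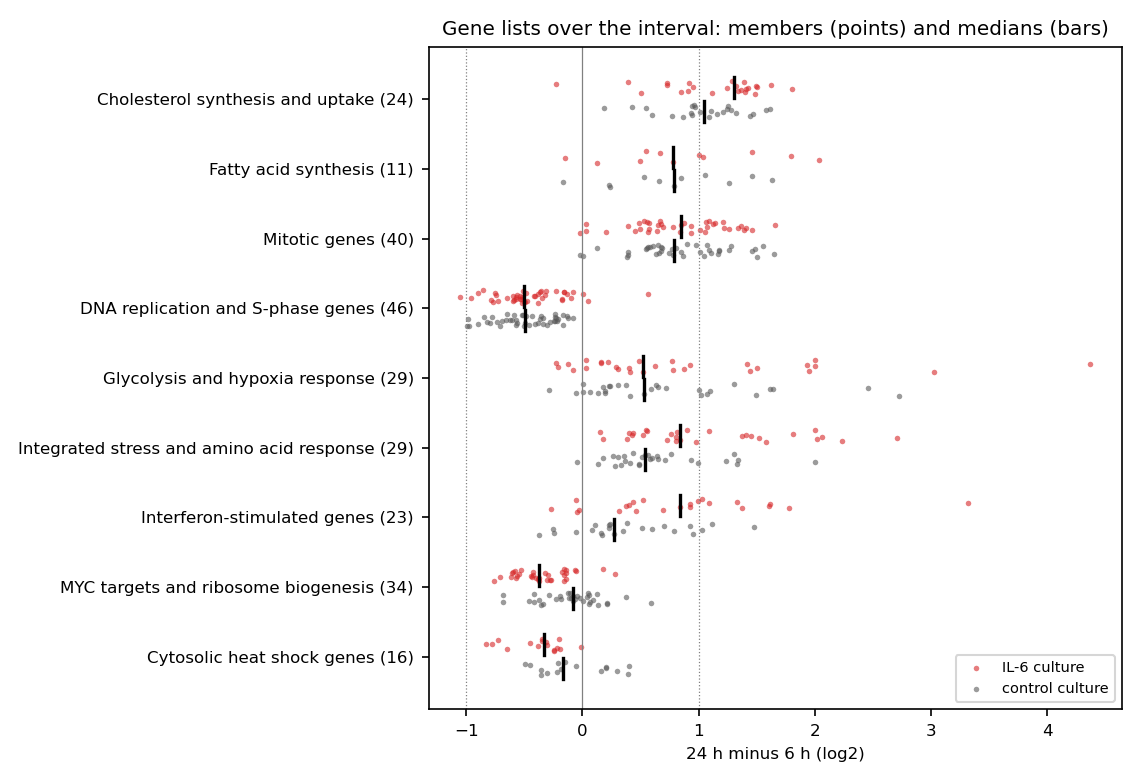
Difference between 24 h and 6 h (log2) for the members of 9 gene lists, with the number of members past the level filter in brackets, in the IL-6 culture (red points) and the control culture (grey points), bars at the medians and dotted lines at 2-fold. The pairs of medians coincide for the S-phase genes (-0.50 and -0.49) and stand apart for the interferon-stimulated genes (0.84 and 0.27).

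The genes that exceeded the control upward included several that were still above the control at 48 h. S100A12, a calgranulin secreted by monocytes and neutrophils (chr1:153373711-153375621), had levels of 31.0, 83.1 and 70.9 at 6, 24 and 48 h with IL-6, and of 22.2, 14.8 and 7.96 in the control. The cultures parted from a small gap at 6 h, with the IL-6 culture going up and the control going down, so the intervals were 1.42 and -0.59. CLU, which encodes the secreted chaperone clusterin, had no recovered level, and its centred log2 values were -0.57, 1.67 and 2.26 with IL-6 against -0.99, -1.01 and -1.38 without. It was higher by 2.24 over the IL-6 interval and flat in the control (-0.02). MUC1, a transmembrane mucin (chr1:155185824-155192916), went from 8.19 to 26.5 with IL-6 and from 6.53 to 7.51 without, and stood at 21.6 and 4.24 at 48 h. SLC11A1, the phagosomal metal transporter NRAMP1, went from 8.08 to 18.7 and on to 33.6 with IL-6, and was at 8.49, 8.48 and 9.82 in the control. CD9, a tetraspanin, went from 3.69 to 18.4 and then 27.6, against 7.11, 13.6 and 10.3. In CD9 the control also went up over the interval (0.93), and the IL-6 culture started lower. The limma adjusted p-values of the common change were 0.0913 for CD9 and between 0.203 and 0.851 for S100A12, CLU, MUC1 and SLC11A1. That test asks for a change shared by both cultures and not for these differences, which have no test.

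STAT proteins bind a palindrome with the letters TTCNNNGAA, and the promoters of genes exceeding the control were read for it. It stood in 2 of the 43 matched promoters of the higher genes (4.65%) and 1 of the 14 of the lower genes (7.14%), beside 6.53% of the 7151 genes counted here and 7.88% of all 27305 promoters in the table. S100A12 (chr1:153375572-153375871, minus strand) and MUC1 (chr1:155192866-155193165, minus strand) are shown as members with a large gap between cultures that also stood at 48 h, and S100PBP (chr1:32825063-32825362, plus strand), which encodes an S100P-binding protein, as a member with a match.
S100A12: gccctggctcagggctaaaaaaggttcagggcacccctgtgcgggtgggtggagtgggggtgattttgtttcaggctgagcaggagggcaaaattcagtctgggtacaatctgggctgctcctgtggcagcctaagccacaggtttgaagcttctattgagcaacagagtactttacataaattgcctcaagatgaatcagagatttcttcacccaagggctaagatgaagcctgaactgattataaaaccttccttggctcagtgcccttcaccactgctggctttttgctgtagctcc
MUC1: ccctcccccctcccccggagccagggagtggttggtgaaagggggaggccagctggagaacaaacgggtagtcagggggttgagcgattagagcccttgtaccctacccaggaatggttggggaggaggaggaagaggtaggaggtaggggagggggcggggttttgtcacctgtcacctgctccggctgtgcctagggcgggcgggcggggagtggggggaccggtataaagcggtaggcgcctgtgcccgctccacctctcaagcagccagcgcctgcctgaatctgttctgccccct
S100PBP: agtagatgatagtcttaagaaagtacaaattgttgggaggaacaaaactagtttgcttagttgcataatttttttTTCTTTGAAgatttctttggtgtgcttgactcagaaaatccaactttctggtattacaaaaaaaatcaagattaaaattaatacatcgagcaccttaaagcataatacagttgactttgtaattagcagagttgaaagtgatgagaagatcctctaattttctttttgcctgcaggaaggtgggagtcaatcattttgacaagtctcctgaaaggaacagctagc
Capitals mark the palindrome, which begins at base 76 of the S100PBP window and has no match in the other windows. That window lies inside the span listed for S100PBP in these data (chr1:32816767-32858875) and not at its listed start. S100PBP went from 6.23 to 13.9 with IL-6 and from 14.5 to 10.9 without, and was at 14.8 and 17 at 48 h, so the cultures differed mostly at 6 h.

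Apart from the need for a value in all 6 libraries, the 48 h libraries took no part in choosing these genes. The shares over all genes given beside them are not matched for level. Only 18 of the 48 higher and 6 of the 18 lower genes had a mean level of at least 10 or none recovered. Of the 48 higher genes, 32 were above the control at 48 h, against 44.0% of all genes, and 10 by at least 2-fold, against 1.02% of all genes. The 10 were S100A12, CLU, MUC1, SLC11A1, CD9, OAS1, PFKFB4, CHAC1, SERPINE2 and CST7, of which the last pair, a serine protease inhibitor and a cystatin, were named after their values were seen. Of the 18 lower genes, 13 were below the control at 48 h, where 44.0% of all genes were above it and most were thus not. At least 2-fold below the control were 3 of the 18, against 0.450% of all genes. The median ratio to the control went from -0.77 at 6 h to 0.57 at 24 h and 0.22 at 48 h for the higher genes, and from 0.56 to -0.93 and -0.18 for the lower ones. The first 2 of these medians follow from how the genes were chosen. At 6 h, 13 of the 48 were at least 2-fold below the control, and at 24 h, 11 were at least 2-fold above it.

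**Figure D4:**
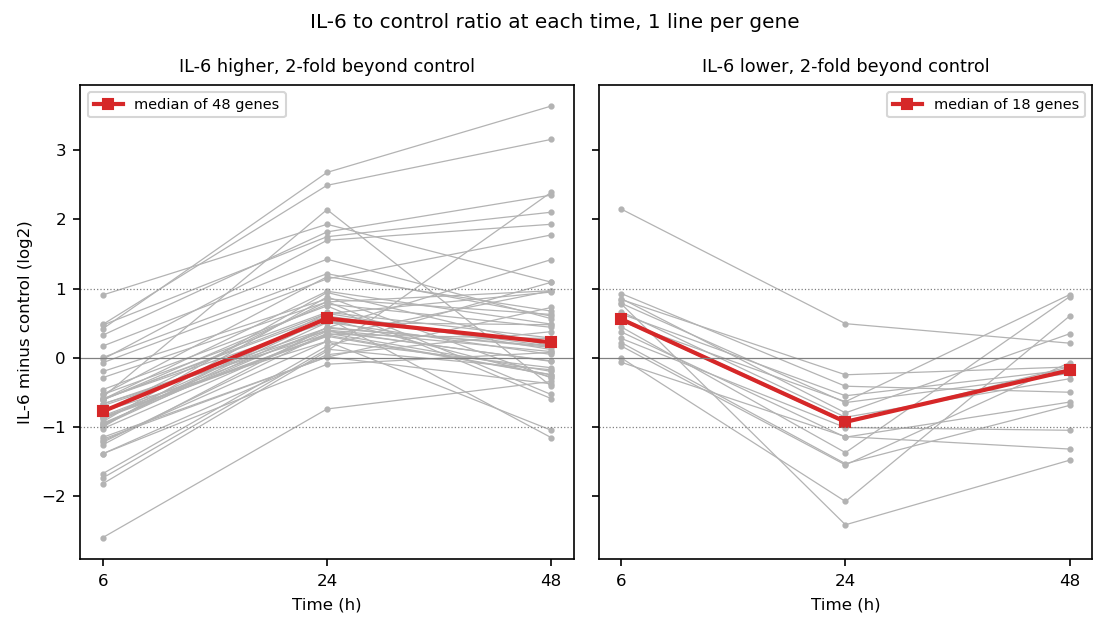
IL-6 to control ratio (log2) at 6, 24 and 48 h, 1 grey line per gene, for the 48 genes higher (left) and the 18 genes lower (right) with IL-6 by at least 2-fold beyond the control, with the median as a red line and dotted lines at 2-fold. The 6 h and 24 h points chose the genes, and at 48 h the medians were 0.22 and -0.18, with S100A12 at 3.16 and CLU at 3.64 the highest lines.

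Several genes counted as exceeding the control had started below it. NR1H3, which encodes the oxysterol receptor LXRα, went from 5.04 to 19.2 with IL-6 and stayed at 9.56 and 9.96 without, and at 48 h the cultures were at 13.1 and 11.7. INSIG2, an ER protein that holds back SREBP, went from 11.8 to 30.4 against 20.2 and 17.3, and came back to 17.4 with IL-6 while the control stood at 25.1. ZFP90, a zinc finger gene, went from 4.85 to 14.6 against 11.6 and 10.8, and CA11, a carbonic anhydrase-related gene, from 5.94 to 14.4 against 13.7 and 12.2. In INSIG2, ZFP90 and CA11 the control changed by -0.23 to -0.11, and the gap between cultures was wider at 6 h than at 24 h for ZFP90 and CA11. IL23A, which encodes the p19 subunit of interleukin-23, went from 3.28 to 10.2 with IL-6 and from 6.46 to 7.18 without. A gene listed only by the identifier ENSG00000144785 (chr12:56285916-56316059) went from 5.73 to 41.1 with IL-6 against 8.49 and 9.31, and was back at 4.50 at 48 h. It spans other genes, and its reads cannot be assigned with certainty.

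Genes of the integrated stress response were higher in both cultures and further with IL-6. This response, run by the transcription factor ATF4, is known for raising amino acid synthesis and transport when amino acids are short. Of 29 members, 12 passed 2-fold upward with IL-6 and 5 in the control, all 5 being among the 12, and 3 exceeded the control by 2-fold. Medians were 0.84 and 0.54, and 25 of 29 members had the larger difference with IL-6, as did 41.4% of all genes, at a median gap of 0.44 beside -0.07 over all genes. By limma 19 members rose over both cultures. ASNS, asparagine synthetase, went from 12.2 to 36.6 and then 90.2 with IL-6 and from 10.9 to 13.6 and then 60.9 without, so the control went up later. CHAC1, a glutathione-degrading enzyme, went from 7.20 to 29.2 and 66.7 against 3.84, 7.66 and 31.3. SESN2, sestrin 2, an inhibitor of mTORC1, went from 3.60 to 12.6 and 22.4 against 3.59, 5.45 and 14.7. All 3 were still going up in both cultures at 48 h. ATF5 went from 7.66 to 36.0 and NUPR1, a stress-induced chromatin protein, from 6.70 to 28.0, against 5.65 to 14.2 and 5.95 to 15.1. ATF4 itself differed by 0.80 and 0.49, and DDIT3, which encodes CHOP, by 0.39 and -0.05. At 48 h, 23 of the 29 were at least 2-fold above their 6 h value with IL-6, against 4.12% of all genes, and 28 of 29 were above the control, against 44.0% of all genes, with a median ratio of 0.56.

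ATF4 acts with C/EBP proteins at an element with the core TGATGNAA, and the promoters of ASNS (chr7:97872359-97872658, minus strand) and CHAC1 (chr15:40953221-40953520, plus strand) are shown because they hold it and exceeded the control. The CHAC1 window lies inside the span listed for CHAC1 in these data (chr15:40952962-40956512) and not at its listed start. Capitals mark the core, read on either strand.
ASNS: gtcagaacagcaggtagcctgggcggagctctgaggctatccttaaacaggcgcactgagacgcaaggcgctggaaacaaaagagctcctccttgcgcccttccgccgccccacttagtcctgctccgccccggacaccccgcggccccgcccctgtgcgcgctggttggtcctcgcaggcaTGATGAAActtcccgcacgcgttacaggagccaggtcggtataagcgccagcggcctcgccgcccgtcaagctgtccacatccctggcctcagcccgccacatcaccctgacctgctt
CHAC1: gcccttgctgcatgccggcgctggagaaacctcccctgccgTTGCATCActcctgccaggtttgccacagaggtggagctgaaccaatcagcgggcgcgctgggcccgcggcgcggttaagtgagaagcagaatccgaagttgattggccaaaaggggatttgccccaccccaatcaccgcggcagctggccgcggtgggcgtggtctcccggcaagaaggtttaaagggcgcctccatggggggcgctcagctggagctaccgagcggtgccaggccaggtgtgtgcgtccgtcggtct
The core stood in 3 of the 24 matched promoters of the list and in 1.69% of the 7151. The third was that of SLC3A2, the heavy chain of an amino acid transporter. Aminoacyl-tRNA synthetase genes, which ATF4 is also known to raise, had 1 of 20 past 2-fold with IL-6, CARS1 (1.15, against 0.86 without), and medians of 0.32 and 0.18. For 15 of the 20 no level was recovered, and without them the IL-6 median was -0.04.

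Among the 38 lists with at least 3 members past the filter, interferon-stimulated genes had the widest gap between the intervals. The median gap was 0.58 over 23 members, beside -0.07 over all genes. Medians were 0.84 with IL-6 and 0.27 without. With IL-6 8 members passed 2-fold upward, against 3 in the control, beside 2.80% and 2.26% of all genes. The control was exceeded by 2-fold in 4 members, OAS1, MX1, IFIH1 and SAMD9, beside 0.554% of all genes. OAS1 (mean level 7.21), MX1 (7.26) and IFIH1 lay at a level of 5 to 10, where 2.6% of genes exceeded the control in either direction. OAS1, the 2-5A synthetase, went from 1.25 to 12.5 and 18.6 with IL-6 and from 3.98 to 11.1 and 8.76 without. MX1, an antiviral GTPase, went from 3.94 to 12 and 25 against 6.01, 7.04 and 18.4. The IL-6 culture was thus the lower at 6 h and the higher at 24 h in both. IRF7, the transcription factor of the interferon response, went from 8.32 to 25.3 and from 8.08 to 16.5, and IFITM1, a membrane restriction factor, differed by 1.78 and 0.79. ISG15, a ubiquitin-like modifier, differed by 0.40 and -0.25. By limma 6 of 23 rose over both cultures, beside 4.49% of all genes. At 6, 24 and 48 h the median ratio to the control was 0.03, 0.34 and 0.22, with 21 of 23 members above the control at 48 h, against 44.0% of all genes. With the filter at a level of 10, the IL-6 median was 0.61.

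Interferon-stimulated promoters are known for the interferon-stimulated response element, and 2 are shown that hold its core TTCNNTTTC and exceeded the control. MX1 is at chr21:41420308-41420607, plus strand, and IFIH1, the RNA sensor MDA5, at chr2:162318635-162318934, minus strand. The MX1 window lies inside the span listed for MX1 in these data (chr21:41420020-41470071) and not at its listed start. Capitals mark the core on either strand.
MX1: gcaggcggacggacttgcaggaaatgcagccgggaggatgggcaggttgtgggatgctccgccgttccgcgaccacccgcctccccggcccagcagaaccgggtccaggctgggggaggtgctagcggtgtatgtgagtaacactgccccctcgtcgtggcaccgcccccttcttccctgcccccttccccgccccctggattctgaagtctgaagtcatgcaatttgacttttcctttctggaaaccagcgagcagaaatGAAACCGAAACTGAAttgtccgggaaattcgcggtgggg
IFIH1: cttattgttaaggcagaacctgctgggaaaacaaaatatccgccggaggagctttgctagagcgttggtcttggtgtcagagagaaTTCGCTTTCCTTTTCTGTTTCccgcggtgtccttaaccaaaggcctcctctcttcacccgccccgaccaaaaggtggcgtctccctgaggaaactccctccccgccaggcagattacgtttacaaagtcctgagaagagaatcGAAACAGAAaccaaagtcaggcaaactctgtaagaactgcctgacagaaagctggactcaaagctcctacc
MX1 holds 2 matches and IFIH1 holds 4, some of them overlapping. The core stood in 11 of the 19 matched promoters of the list and in 6.59% of the 7151. IFIH1 went from 3.0 to 7.77 with IL-6 and from 7.84 to 7.53 without.

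Of the 18 genes lower with IL-6 beyond the control, 6 had a mean level of at least 10 and the others lay below it. IL18BP, the secreted inhibitor of interleukin-18, went from 17.7 to 7.47 and stayed at 7.0 at 48 h with IL-6, while the control held at 18.5, 16.5 and 17.5. IL18BP, ZGRF1 and the locus ENSG00000260861 were the 3 of these 18 that stood at least 2-fold below the control at 48 h, ZGRF1, a helicase gene, being named after its values were seen. DUSP6, a phosphatase that switches off ERK, went from 21.2 to 10.3 with IL-6 and from 13.3 to 18.7 without, and was at 14.6 and 18 at 48 h. ATAD3B, a mitochondrial ATPase, went from 22.5 to 10.4 against 11.8 and 13.9, and PEX10, a peroxisome assembly factor, from 17.2 to 5.84 against 11.5 and 11. NAGPA, an enzyme that makes the lysosomal targeting tag, went from 21.6 to 10.1 against 15 and 15.6, and at 48 h it stood at 19.6 with IL-6 and 10.4 without. In DUSP6, ATAD3B, PEX10 and NAGPA the IL-6 culture was above the control at 6 h and below it at 24 h. CRY1, a repressor of the circadian clock, went from 7.34 to 3.28 against 4.06 and 5.70. CTSV, the protease cathepsin V, was not among the 18, at a gap between intervals just short of 2-fold, and went from 17.9 to 7.11 against 21.3 and 16.9. Its common fall was 0.83 by limma (log2 fold change -0.83 ± 0.236, adjusted p = 0.0493).

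PIM1, BCL3 and CCL2, among the genes known to respond to IL-6, were below 2-fold over this interval. PIM1, a kinase gene that STAT3 is known to raise, had levels of 29.2 at 6 h and 35 at 24 h with IL-6 and of 6.56 and 5.17 without, a difference of 0.26 against -0.34. BCL3, a nuclear regulator of NF-κB, went from 18.7 to 32.5 against 3.52 and 5.30, and CCL2, the monocyte chemokine, from 40.9 to 30.9 against 11 and 7.90. In all 3 the IL-6 levels lay far above the control at both times, and the IL-6 interval exceeded the control interval by 0.61 for PIM1, 0.21 for BCL3 and 0.07 for CCL2. SOCS3, the feedback inhibitor, was below the level filter at 3.20 and 2.59 with IL-6 and 0.717 and 0.986 without. STAT3 differed by 0.16 and 0.45, IL6R by -0.08 and 0.41 and the gp130 gene IL6ST by -0.06 and 0.30. Of 17 receptor and JAK-STAT genes none passed 2-fold in either culture. Of 27 STAT3 targets and feedback genes 3 did so with IL-6 (CDKN1A, VEGFA and S100A12) and 2 in the control, with medians of 0.26 and 0.32. Some of that list was taken from earlier results of these samples, so its counts are not independent evidence. CDKN1A, the cell cycle inhibitor p21, went from 16.1 to 67.1 with IL-6 and from 13.8 to 36.4 without (limma adjusted p = 6.83e-05).

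Some monocyte genes drifted apart over the interval without reaching 2-fold with IL-6. S100A8 and S100A9, the subunits of calprotectin, differed by 0.54 and 0.55 with IL-6 and by -0.15 and -0.62 without, so their ratio to the control went from 1.21 to 1.90 and from 0.98 to 2.15. CD14, the lipopolysaccharide co-receptor, had centred log2 values of -0.16, 0.50 and 2.77 at 6, 24 and 48 h with IL-6 and of -0.87, -1.24 and -0.99 without. Most of its increase with IL-6 came after 24 h. LYZ, lysozyme, differed by -0.52 and -0.53, and LGALS3, galectin-3, by -0.89 and -1.10. Of 22 monocyte and macrophage genes 1 passed 2-fold upward with IL-6, S100A12, and medians were -0.14 and -0.08.

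The control culture had changes that went beyond those with IL-6. In 30 of the 8669 genes the control was at least 2-fold higher at 24 h and at least 2-fold beyond IL-6. In 8 of the 8669 it was lower in the same way. These counts set no limit on the IL-6 difference, which was under 0.32 (log2) in size for the genes named here. PTGS1, cyclooxygenase 1, went from 14.7 to 32.9 in the control and stayed at 14.2 and 13.4 with IL-6, where it reached 26.4 at 48 h as the control came down to 18.2. STK10, a kinase that regulates leukocyte adhesion, went from 22.3 to 53.6 against 24.5 and 29.1, and FGD3, an exchange factor for Cdc42, from 14.2 to 31.4 against 16.4 and 17.8. At 48 h, STK10 was at 49.0 in the control and 50.3 with IL-6 and FGD3 at 25.3 and 28.9, so the levels in the IL-6 culture had reached those of the control. SHFL, an antiviral inhibitor of frameshifting, went from 6.48 to 14.6 against 11.1 and 12.2. VPS37B, a subunit of the ESCRT-I complex, went from 6.61 to 13.9 against 9.91 and 9.82. ATPSCKMT, a mitochondrial methyltransferase, went down from 17.1 to 8.22 in the control and from 12.6 to 14.1 with IL-6.

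Growth-related lists shifted with IL-6 by less than 2-fold. Of 34 MYC target and ribosome biogenesis genes none passed 2-fold in either direction, yet 32 were below their 6 h value with IL-6 against 21 in the control, with medians of -0.37 and -0.08. Of all genes, 47.4% were below their 6 h value with IL-6 and 37.4% in the control. BOP1, a ribosome assembly factor, went from 102 to 60.0 with IL-6 and from 87.0 to 68.1 without, and MYC differed by -0.57 and 0.06. At 6 h the median of the list stood 0.30 above the control and at 24 h 0.03 above it. All 16 cytosolic heat shock genes were below their 6 h value with IL-6 and 10 of 16 in the control, beside the same 47.4% and 37.4%, with medians of -0.33 and -0.17. The near-identical HSPA1A and HSPA1B, whose reads cannot be told apart with certainty, differed by -0.78 and -0.83 with IL-6 and by 0.20 each without. Of 14 myeloid transcription factors, 13 had the lower difference with IL-6, as did 58.6% of all genes, at a median gap of -0.32 beside -0.07 over all genes, and BHLHE40 passed 2-fold in both cultures (1.83 and 2.26). Ribosomal protein genes (77), nuclear genes of oxidative phosphorylation (51) and housekeeping genes (16) had no member past 2-fold in either culture, with IL-6 medians of -0.01, -0.13 and 0.03.

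Of 4 lists of markers of other cell types, each had 1 member past the level filter: MUC1, NKG7, BANK1 and GP9. The summed level of epithelial and fibroblast markers went from 9.66 to 27.9 with IL-6 and from 8.66 to 9.97 without. Of that list 4 of 15 members had values in all libraries, and MUC1 made up most of the sum. T and NK cell markers summed to 1.71 and 3.72 with IL-6 and to 2.60 and 1.36 without, leaving out NKG7, which has no recovered level and differed by 1.25 and 0.57. B cell markers went from 15.4 to 19.6 and from 17.6 to 22.5, and erythroid and platelet markers from 6.67 to 7.26 and from 5.67 to 6.93. Their part in the results above was not tested.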

How the data were processed

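Per the labels' protocols, libraries were made from total RNA with the SMART-seq v4 and Nextera XT kits and run on a NovaSeq. Neither kit is known to mark strand. Per the submitters' processing notes the build was GRCh38 (hg38). For the aligner, counter, annotation and normalization the sources used here give no entry. Per the file headers, the authors deposited 1 processed signal per gene for 60325 gene rows. These log2 values are centred on each gene by the authors, since the largest gene mean is 1.8e-07 in size. No read counts were used, so depth is unknown and no counting interval is given.

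A level was recovered where a gene's values in the 6 libraries, after 1 offset per library, stood as whole multiples of a step of 0.001, with values at a floor of 0.01 tried first. Of 13028 genes, 11295 matched in whole steps and 123 at the floor, and 1610 that matched neither were kept as high. The unit is arbitrary, a level can be too low by a whole factor, and the scripts were tested on simulated data.

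Differences were 24 h minus 6 h of the deposited log2 values, counted past 2-fold in genes whose mean level reached 5, with no pseudocount. Limma 3.58.1 in R 4.3.3 fitted time and agent over the 6 libraries, with robust empirical Bayes and a trend on level. The median prior was 13.38 beside 2 residual degrees of freedom. In the trend, genes with no recovered level were given an assumed level of 100. P-values were adjusted by Benjamini-Hochberg over 8669 genes. Named genes were the 10 highest and lowest IL-6 differences, the 10 highest and lowest gaps between intervals among genes past 2-fold, the 5 highest and lowest shared and control-only changes (for the latter, under 0.32 log2 in size with IL-6; all at a mean level of at least 10 and at least 1 in each of the 4 libraries), and in each of 42 lists the 4 largest differences and key members. Where fewer genes qualified, all were taken, and no gene met a further rule for a mean level of at least 10 with a library under 1. Other genes named were chosen after their values were seen. The comparison, lists and rules were chosen with earlier results of these data known. Alternatives changed the level filter, scaling, pseudocount, biotype, fold and variance model. Results for some genes are not reported here.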

Additional observations from a re-analysis of the deposited data

Results flagged for a closer look

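The locus ENSG00000260861 (chr20:1540144-1620009), annotated as a protein-coding readthrough of SIRPB1 and SIRPD, was the 1 gene of 8669 that passed 2-fold in opposite directions in the 2 cultures. Its levels at 6, 24 and 48 h were 14.4, 3.38 and 3.69 with IL-6 and 8.38, 18 and 10.3 in the control. The differences were -2.09 and 1.11, so the IL-6 interval minus the control interval was -3.19. With 1 library in each condition, this difference was not tested. The locus overlaps the genes it joins, and its reads cannot be assigned with certainty.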

How the results depend on the processing

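Counts of genes past 2-fold depended on the level filter and on the fold. In the order IL-6 higher and lower, control higher and lower, and exceeding the control higher and lower, they were 596, 231, 569, 144, 214 and 141 at a level of at least 1. They were 139, 20, 112, 10, 18 and 6 at a level of at least 10, and 1098, 580, 1081, 429, 521 and 408 with no filter. At 1.5-fold they were 781, 395, 921, 231, 220 and 175, at 3-fold 54, 4, 41, 1, 8 and 1, and on log2(level + 1) 153, 27, 130, 10, 31 and 7. With equal library medians the control had 49 lower genes, and 47 of the 48 and 17 of the 18 genes exceeding the control were in that class there too. For limma, higher and lower counts were 231 and 45 with no filter, 140 and 12 without the trend, and 719 and 372 without the 48 h pair, and 71 lower genes were called at a level of at least 1. Leaving out each of the 4 libraries of 6 h and 24 h in turn gave 150 to 272 higher and 19 to 67 lower genes. Both counts fell by over 1.5 times without the control 24 h library (150 and 37), the IL-6 6 h library (152 and 19) or the IL-6 24 h library (232 and 59), and the lower count did so without the control 6 h library (272 and 67). The cause was not tested. The complement list's median, -0.13, was 0.20 at a level of at least 1 and with no filter, and that of the aminoacyl-tRNA synthetases, 0.32, was -0.04 with genes of no recovered level left out and on log2(level + 1). CDC20 missed 2-fold with equal medians (0.99), and CRY1, DUSP6, MCM10, NPC1, RPUSD1 and SCO1 missed it on log2(level + 1), from -0.99 for RPUSD1 to -0.93 for SCO1 among the lower genes and at 0.97 for NPC1. No paired analysis was possible because each condition has 1 library, so that agent and time already take up what a pair number could mark. No read depth or replicate stands behind a single difference, which limits every value at low level.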

Other observations

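Of the 243 genes at least 2-fold higher at 24 h with IL-6, 140 were at least 2-fold above their 6 h value at 48 h, against 4.12% of all genes, and 13 of the 47 lower genes were as far below it, against 2.12%. Both counts share the 6 h library that chose the genes, and neither was taken for the control culture. Ribosomal protein genes had no member past 2-fold at 24 h and an IL-6 median of -0.01. At 48 h against 6 h their IL-6 median was -0.51, beside 0.02 over all genes. Of the 77, 2 were above the control at 48 h, against 44.0% of all genes. Nuclear genes of oxidative phosphorylation and mitochondrially encoded genes were at -0.46 and -0.47 by then. Above the control were 7 of 51 and 3 of 13, against the same 44.0%. HMOX1, which encodes heme oxygenase 1 and lay below the level filter, was at levels of 2.08, 3.74 and 7.97 with IL-6 at 6, 24 and 48 h and at 1.18, 0.446 and 0.771 without. SERPINA1, the gene of alpha1-antitrypsin, went from 14.3 to 24.7 and 50.1 with IL-6 and from 6.96 to 9.41 and 6.36 without. Its IL-6 interval of 0.78 fell short of 2-fold, and its ratio to the control was 2.98 at 48 h. AKAP7, an anchoring protein for protein kinase A, went from 7.68 to 5.11 with IL-6 and from 15 to 15.5 without.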
